A study of Mus musculus with 3 samples.

Results

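Cholesterol synthesis, uptake and export was followed through 31 genes in RNA from sorted group 2 innate lymphoid cells (ILC2s), tissue lymphocytes that lack rearranged antigen receptors and release type 2 cytokines. The genes were taken as a named list, by matching the Entrez gene IDs of the count table to mouse symbols, and all 31 had a row among the 27179 gene IDs. The study's title concerns the circadian clock in a related gut lymphocyte, but the libraries here hold a single group of 3 samples, 1 from each of 3 wild-type C57BL/6 mice. The sort gated on CD90.2, CD127 and KLRG1 within CD45+ cells and left out any that carried B220, CD11b, CD11c, NK1.1, CD3, CD5 or CD8. No treatment or allele is named, and the sources used here do not give the tissue, the sex or age of the animals or the hour at which cells were taken. With 1 group, the data answer how abundant each gene was and how far the 3 mice differed.

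Cells make cholesterol from acetyl-CoA through mevalonate, farnesyl diphosphate, squalene and lanosterol, and farnesyl diphosphate also feeds protein prenylation and other branches. Transcription of the pathway is controlled by sterol regulatory element binding proteins (SREBPs), which SCAP escorts out of the endoplasmic reticulum when sterol is low and INSIG proteins hold back when it is high. Surplus cholesterol is esterified, exported by ABC transporters or oxidised to oxysterols, which activate LXR receptors and, in lymphoid tissue, guide cells that carry GPR183.

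Library totals ran from 17819551 to 26374248 counts, with the smallest library from mouse 2 and the largest from mouse 3. Levels of different genes were compared as TPM, the share of each library's length-corrected counts scaled to 1000000, and the same gene was compared between mice as CPM, counts scaled to 1000000 on library sizes adjusted by edgeR's trimmed mean of M values. All 10 ILC2 markers were detected, with a summed level of 9600, 7523 and 8335 CPM in mice 1, 2 and 3. Klrg1, Il7r and Thy1 among them encode proteins used in the sort (KLRG1, CD127 and CD90), so their detection is no independent check of it. Plasma and B cell markers were also present, with 4 of 8 detected and a summed level of 5699, 13955 and 18756 CPM in mice 1, 2 and 3, while Ms4a1 and Pax5 had no count. Jchain alone gave 5527, 13790 and 18473 CPM of that sum, and Cd79b was nearly even at 139, 129 and 155 CPM. Immunoglobulin genes took 1.04% to 7.81% of the counts, most in mouse 3. Of the other markers, 2 of 6 for T cells, 1 of 8 for myeloid cells, 1 of 7 for gut epithelium and 2 of 6 for stroma and endothelium were detected. In such bulk samples a change in the number of cells of a type and a change in RNA per cell cannot be told apart.

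Detection was set at 1 CPM or more in every mouse. By this measure 29 of the 31 cholesterol genes were detected, beside 38.0% of the 20983 protein-coding gene IDs. The 2 that were not were Abca1, a cholesterol exporter, and Ch25h, which makes an oxysterol. All 18 synthesis enzymes, all 5 genes of SREBP control and all 4 genes grouped as uptake and intracellular transport were among those detected. Those 4 were Mylip, Npc1, Npc2 and Stard4, and none of them is a lipoprotein receptor. Levels of the detected members ranged from Abcg1 at the 4.7th percentile of all detected genes by mean TPM to Sc5d at the 89.8th.

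Promoter sequence is shown for the 4 synthesis enzymes with the highest TPM, for Lss, the enzyme with the lowest, and for Hmgcs1. Hmgcs1 was the single member whose promoter entry held the form of the sterol regulatory element searched for. Sequences are from RefSeq on GRCm38.p6 and give, 5′ to 3′ on the gene's own strand, the 150 bases before the annotated start, with motif matches in capitals. Msmo1 lies at chr8:64733579-64733728 (minus strand), Sc5d at chr9:42264301-42264450 (minus strand), Ebp at chrX:8193513-8193662 (minus strand), Cyp51 at chr5:4104698-4104847 (minus strand), Lss at chr10:76531455-76531604 (plus strand) and Hmgcs1 at chr13:119690201-119690350 (plus strand).
Sc5d: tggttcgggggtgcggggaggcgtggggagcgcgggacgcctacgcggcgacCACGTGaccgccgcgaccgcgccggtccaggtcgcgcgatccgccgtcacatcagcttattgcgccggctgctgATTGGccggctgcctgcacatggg
Ebp: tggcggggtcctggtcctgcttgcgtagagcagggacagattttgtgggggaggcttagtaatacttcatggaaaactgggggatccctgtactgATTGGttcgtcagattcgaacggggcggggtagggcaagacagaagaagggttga
Cyp51: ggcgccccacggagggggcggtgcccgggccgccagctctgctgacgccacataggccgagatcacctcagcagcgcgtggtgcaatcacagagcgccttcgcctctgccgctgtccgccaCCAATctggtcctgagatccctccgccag
Msmo1: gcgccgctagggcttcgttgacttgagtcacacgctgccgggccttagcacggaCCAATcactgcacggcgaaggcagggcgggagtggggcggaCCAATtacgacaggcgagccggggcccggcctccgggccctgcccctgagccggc
Lss: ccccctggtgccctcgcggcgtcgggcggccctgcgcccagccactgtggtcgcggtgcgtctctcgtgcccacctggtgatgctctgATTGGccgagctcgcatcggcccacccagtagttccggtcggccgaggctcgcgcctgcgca
Hmgcs1: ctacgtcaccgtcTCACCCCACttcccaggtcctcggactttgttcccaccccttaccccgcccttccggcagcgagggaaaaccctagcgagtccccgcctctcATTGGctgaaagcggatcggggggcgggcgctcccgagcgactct
Capitals mark the CCAAT box (CCAAT, or ATTGG where it lies on the other strand), the E-box CACGTG in Sc5d and the sterol regulatory element TCACNCCAC in Hmgcs1, where N is any base. Searched on both strands over 300 bases, from 250 before to 50 after the start, a CCAAT box occurred in 21 of the 25 members with a promoter entry (84%). The same motif occurred in 41.1% of 27025 genes in the table and in 43.1% of the 6681 of them that were detected here. Among synthesis enzymes it occurred in 14 of 15. The element TCACNCCAC occurred in 1 of 25 members and 1.44% of all genes, and CACGTG in 6 of 25 members (24%), 8.09% of all genes and 12.4% of detected genes. No match of any of these motifs overlapped a match of another. The abundant Sc5d, Ebp, Cyp51 and Msmo1 and the scarce Lss all carried a CCAAT box in the stretch printed. A match is a run of letters in this window and no measure of binding. Each motif was searched only in the form given, so a promoter without a match may hold another form of it. Fdps, Fdft1, Sqle, Abcg1, Npc1 and Stard4 had no entry in the promoter table.

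The first steps, from acetyl-CoA to farnesyl diphosphate, were carried at moderate levels. Mvk, mevalonate kinase, had the highest mean of the 7 genes, with 31.5, 32.3 and 66.1 TPM in mice 1, 2 and 3. Pmvk, the kinase that follows it, had 26.4, 26.8 and 27.5 TPM. Fdps, farnesyl diphosphate synthase, had 22.2, 16.9 and 27.1 TPM, and 26.7% of its exon length lies under a second gene model on the same strand. In CPM, the scale used between mice, Mvk stood apart in mouse 3, and Pmvk ranged less, with 20, 25.1 and 27.7. Hmgcs1, the synthase that makes HMG-CoA, had 25.5, 17.9 and 19.5 TPM. Mvd, the decarboxylase that makes isopentenyl diphosphate, was lower at 5.63 ± 0.249 TPM (SD, n = 3), and Idi1, its isomerase, had 4.62 ± 1.45 TPM. Acat2, here the cytosolic thiolase that joins acetyl-CoA units and not the esterifying enzyme Soat2, had 8.96, 2.00 and 1.95 TPM. Its value is uncertain because 39.1% of its 50-base stretches recur in other genes, all of them in Acat3, whose own counts were 1, 0 and 2. Of these 1011 shared stretches, 290 also occur in Tcp1, an abundant gene with 265, 270 and 270 CPM. The part of such reads in the Acat2 values was not tested. Shared stretches made up 26.2% in Fdps and 25.3% in Idi1, mostly with pseudogenes or overlapping models.

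Among the 11 genes listed for the squalene and sterol steps, 4 enzymes stood far above the others. Sc5d, a sterol desaturase, had 159, 146 and 139 TPM in mice 1, 2 and 3. Ebp, a sterol isomerase, had 181, 111 and 136 TPM. Cyp51, the lanosterol demethylase, had 164, 85.0 and 113 TPM. Each of these lay above every value of the 14 remaining enzymes, the highest of which was the Mvk value of mouse 3. Msmo1, the methylsterol oxidase that acts after Cyp51, had 113, 108 and 126 TPM. Singled out after their values were seen, these 4 enzymes made up 75.7%, 77.1% and 69.7% of the summed TPM of the 18 enzymes. Their mean share was 74.2% ± 3.9 (SD, n = 3). The share was 75.1% with the length of the longest transcript and 73.2% with that of the principal transcript, so the concentration in 4 genes held on all 3 lengths. The order within the 4 changed with the length, since Msmo1 had a mean of 116 TPM by all exons and 253 TPM by the principal transcript, above Sc5d at 109 TPM on that length. By all exons the 4 means lay between 116 and 148 TPM, and the values of the mice overlapped between neighbours in that order.

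**Figure D1:**
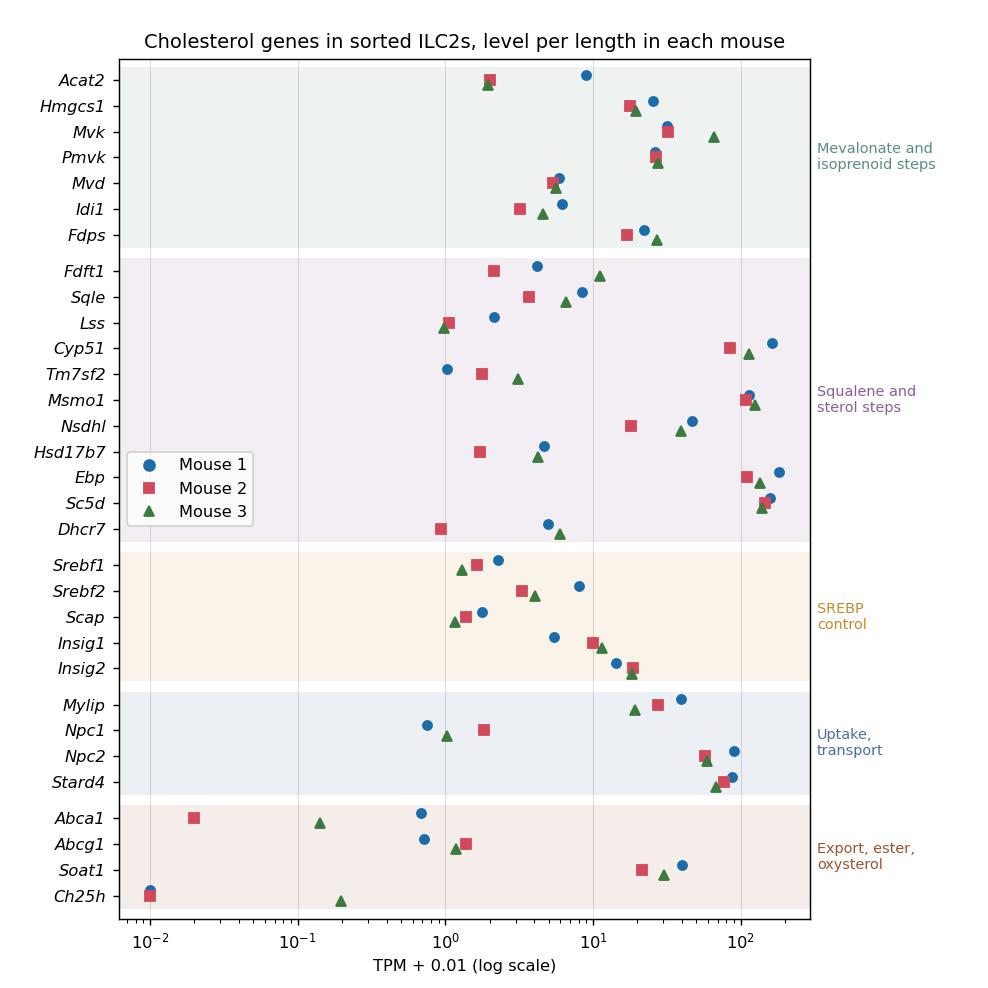
Level per length (TPM + 0.01, log axis) of the 31 genes in each mouse, 1 symbol per mouse, with genes ordered by role. Sc5d, Ebp, Cyp51 and Msmo1 sit between 85.0 and 181 TPM in every mouse, while Abca1 and Ch25h lie under 1 TPM in every mouse.

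The other sterol enzymes had means from 34.8 TPM for Nsdhl down to 1.38 TPM for Lss. Nsdhl, a sterol dehydrogenase that removes methyl groups, had 46.8, 18.1 and 39.4 TPM. Sqle, squalene epoxidase, a flux-controlling step, had 8.44, 3.65 and 6.60 TPM. Fdft1, squalene synthase, which commits farnesyl diphosphate to sterols, had 4.14, 2.11 and 11.2 TPM. Mouse 2 was lowest for all 3 of these genes, in CPM as well as in TPM. Hsd17b7, a sterol ketone reductase, had a mean of 3.55 ± 1.61 TPM (SD, n = 3), Dhcr7, a reductase at the end of the pathway, 3.95 ± 2.66 TPM, and Tm7sf2, another sterol reductase, 1.96 ± 1.05 TPM. Lss, lanosterol synthase, had the lowest mean of the 18, with 2.11, 1.05 and 0.974 TPM, at the 7.4th percentile of detected genes. Tm7sf2 was below it in mouse 1 and Dhcr7 in mouse 2. Its product is the substrate of the abundant Cyp51. On principal transcript length the Lss mean was 2.28 TPM. Transcripts of Fdft1 and of Ctsb, a lysosomal protease gene, overlap on opposite strands over 774 bases, which is 18.3% of the Fdft1 exon length. Ctsb had 191, 116 and 322 CPM and Fdft1 7.72, 4.89 and 27.9 CPM, in the same order of mice. Reads in the shared stretch cannot be told apart in an unstranded library, and their part in the Fdft1 values was not tested.

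Genes of SREBP control were mostly at low levels. Srebf2, whose product drives the synthesis enzymes, had 8.04, 3.30 and 4.02 TPM in mice 1, 2 and 3. Srebf1, better known for fatty acid genes, had 2.27, 1.62 and 1.29 TPM. Srebf2 was the higher of the 2 in each mouse, by 1.62, 0.84 and 1.34 on the log2(TPM + 0.5) scale. The mean difference was 1.27 ± 0.40 (SD, n = 3), with an exact two-sided sign-flip permutation p of 0.25 and 0.30 after Benjamini-Hochberg adjustment over 6 pairs of genes. With 3 libraries 0.25 is the smallest p this exact test allows. Scap, the escort that carries SREBPs, had 1.43 ± 0.316 TPM, and was among the most even of the genes in CPM, with 5.82, 5.63 and 5.02.

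Insig2, which retains the SCAP and SREBP complex, had 14.2, 18.6 and 18.5 TPM, above both SREBP genes in every mouse. Insig1, with the same function and itself an SREBP target, had 5.40, 10 and 11.5 TPM, below Srebf2 in mouse 1 and above it in mice 2 and 3. Insig2 was the higher INSIG gene in all 3 mice. The log2 difference of Insig1 over Insig2 was -0.95 ± 0.34 (SD, n = 3), with an exact two-sided sign-flip permutation p of 0.25 (0.30 adjusted over the 6 pairs). Both INSIG genes were lowest in mouse 1, where Srebf1 and Srebf2 were highest, in CPM as in TPM.

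Of the transport genes, Stard4 and Npc2 were abundant and Npc1 was not. Stard4, a cytosolic sterol carrier, had 87.1, 76.7 and 68.2 TPM, and in CPM was the most even of all members between mice at 215, 234 and 224. Npc2, which lifts cholesterol from the lysosome lumen, had 89.8, 57.1 and 59.2 TPM. Npc1, the membrane protein that takes it over, had 0.742, 1.81 and 1.02 TPM. Both proteins act in series, but the transcripts differed by 6.18, 4.64 and 5.30 on the log2(TPM + 0.5) scale, in favour of Npc2 in every mouse. Their mean difference was 5.37 ± 0.77 (SD, n = 3), with an exact two-sided sign-flip permutation p of 0.25 (0.30 adjusted over the 6 pairs). Over all alternatives, the length of a single transcript included, it ranged from 4.75 to 5.79. Mylip, a ubiquitin ligase that removes lipoprotein receptors from the surface, had 39.5, 27.6 and 19.2 TPM.

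**Figure D2:**
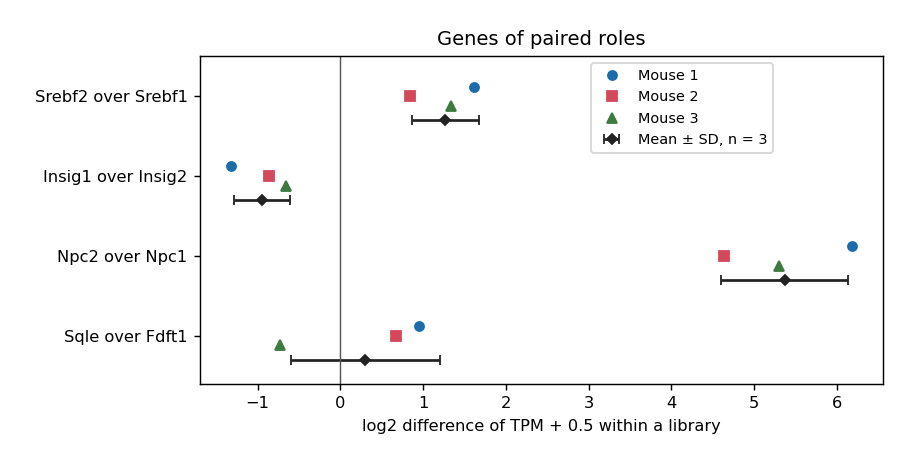
Difference on the log2(TPM + 0.5) scale between genes of paired roles in each mouse (symbols), with their mean and SD drawn below the points. Npc2 exceeds Npc1 by 4.64 or more in every mouse, while Sqle over Fdft1 is positive in mice 1 and 2 and negative in mouse 3.

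Among the genes that handle surplus sterol, the storage enzyme was the most abundant. Soat1, which esterifies cholesterol for storage, had 40.3, 21.5 and 30.4 TPM. Abcg1, an exporter, had 0.712, 1.38 and 1.17 TPM. Abca1 had 0.675, 0.010 and 0.132 TPM, from 70, 1 and 21 counts. In CPM those counts were 3.09, 0.0569 and 0.805, with 95% Wilson intervals of 2.44 to 3.90, 0.01 to 0.322 and 0.527 to 1.23. Mouse 1 was highest and mouse 2 lowest, and the intervals, which cover counting error only and not the spread between animals, did not overlap. Ch25h had no count in mice 1 and 2, which allows up to 0.132 and 0.171 CPM by the limit of 3 counts (the Wilson upper bounds were 0.169 and 0.218), and 4 counts in mouse 3, at 0.153 CPM (Wilson interval 0.0597 to 0.394). No fold is given for Soat1 over Ch25h or for the pair Abcg1 and Abca1, because Ch25h was at or near the floor of 3 counts in every mouse and Abca1 had 1 count in mouse 2. Soat1 was the higher of its pair in 3 of 3 mice.

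Spread between the mice was tested with edgeR's quasi-likelihood fit, which asks whether a gene varied more than the trend for its abundance. None of the 29 genes tested was more variable at a Benjamini-Hochberg adjusted p under 0.05, beside 17 of 9175 genes in all (0.185%). At an unadjusted p under 0.05 there was 1 of 29, Mvk, and 404 of 9175 genes. Limma's variances called 0 members, with 1 at an unadjusted p, and DESeq2 marked 0 as dispersion outliers. Mvk had 37.1, 47.3 and 104 CPM, highest in mouse 3, with an unadjusted edgeR p of 0.0372 and an adjusted p of 0.976. Fdft1 had an adjusted p of 0.976 as well. At the other end, Stard4 had a coefficient of variation of 4.38% in CPM. A test on 3 libraries finds large differences only, and values that were not called are not shown to be equal.

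**Figure D3:**
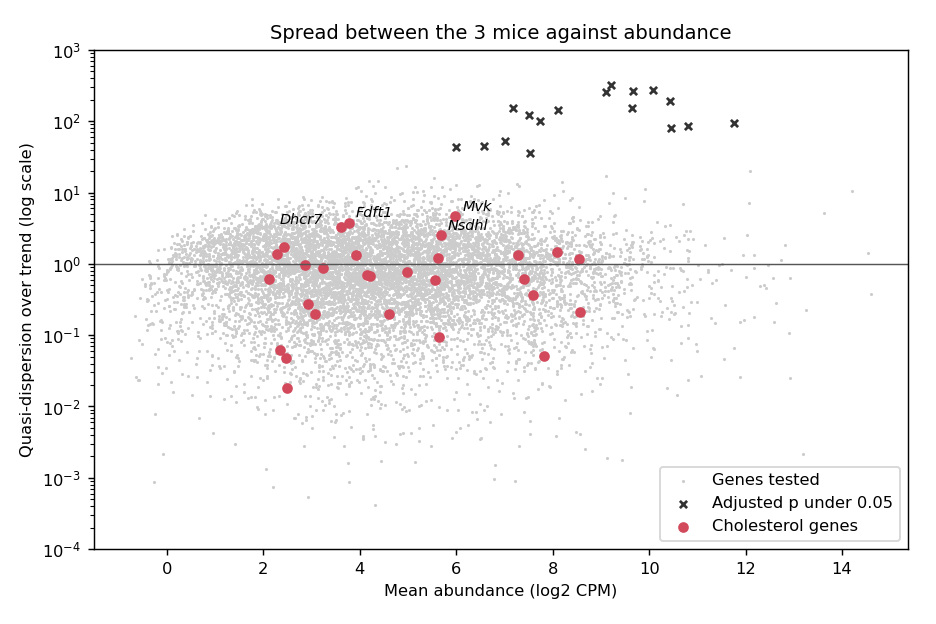
Quasi-dispersion over its abundance trend (log axis) against mean abundance (log2 CPM) for the 9175 genes tested, with the 29 cholesterol genes as filled circles and the 17 genes past the adjusted threshold as crosses. The cholesterol genes lie within the cloud of genes tested, with Mvk highest, and none is among the crosses.

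Without a test, the highest mouse exceeded the lowest by 2-fold or more, on CPM + 0.5, in 10 of the 29 genes, beside 39.0% of all genes tested. The median ratio was 1.58 for the members and 1.75 for all genes tested. Dhcr7 had the widest range, 12.8, 2.96 and 20.3 CPM, a ratio of 6.01. Fdft1 followed with a ratio of 5.27, then Tm7sf2 with 3.43 and Acat2 with 3.21. Tm7sf2 shares 12.1% of its exon length with Vps51 on the same strand, a gene with 10.2, 4.95 and 20.2 CPM. Tm7sf2 itself had 1.99, 4.27 and 8.02 CPM, and both genes were highest in mouse 3. Between 2 and 3 lay Npc1, Mvk, Insig1, Hsd17b7, Nsdhl and Abcg1. The count fell to 5 without mouse 1 and to 5 without mouse 2, where the share over all genes tested was 22.5% and 20%, and to 7 without mouse 3.

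Which mouse held the lowest and the highest CPM of a gene was then counted. Among the 29 genes, 11 were lowest in mouse 1, 14 in mouse 2 and 4 in mouse 3, beside 29.2%, 36.9% and 33.8% of all genes tested. Highest values fell in mouse 1 for 9 genes, in mouse 2 for 3 and in mouse 3 for 17, beside 32.2%, 33.5% and 34.2% of all genes tested. Of the 18 synthesis enzymes, 11 were lowest in mouse 2, 14 were highest in mouse 3 and 0 were highest in mouse 2. No test was made of these counts, and none of the genes in them was called more variable. Their median deviation from each gene's own mean was 0.09, -0.27 and 0.25 on the log2(CPM + 0.5) scale in mice 1, 2 and 3. All genes tested had 0.03, -0.01 and 0.01. The 11 squalene and sterol steps had 0.26, -0.38 and 0.33. Summed over the 18 enzymes the level was 1450, 1332 and 1765 CPM.

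**Figure D4:**
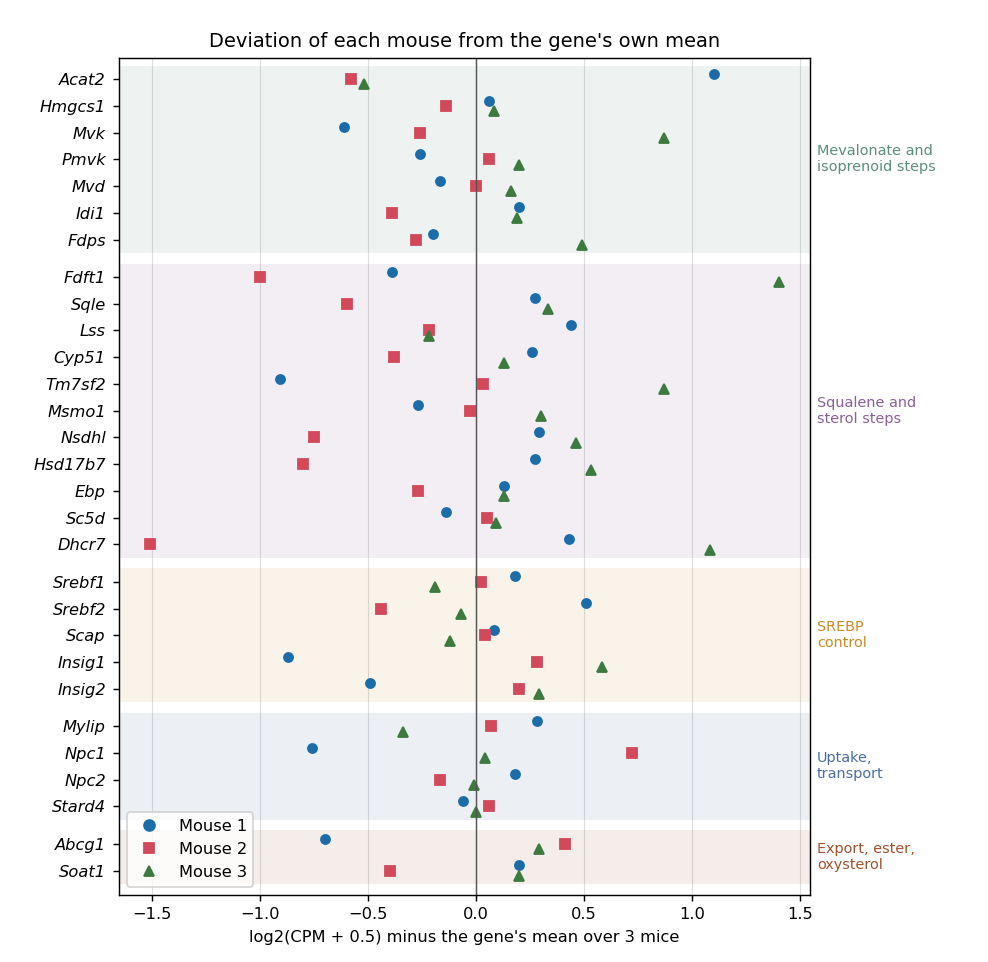
Deviation of each mouse from the gene's own mean, on the log2(CPM + 0.5) scale, for the 29 genes tested. Most synthesis enzymes place mouse 3 to the right of 0 and mouse 2 to the left, whereas Insig1 and Insig2 are lowest in mouse 1.

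Nsdhl is an example, with 58.9, 28.3 and 66.0 CPM, mouse 2 apart from the other two. Hsd17b7 had 10.5, 4.78 and 12.8 CPM, again with mouse 2 lowest. Ebp had 185, 140 and 185 CPM, where mouse 1 and mouse 3 were level to the digits given. Some of these ranks rest on small gaps, as for Lss with 6.20 CPM in mouse 2 and 6.17 CPM in mouse 3. Exceptions were Mvk, Pmvk, Mvd, Tm7sf2, Msmo1 and Sc5d, which were lowest in mouse 1, and Acat2, Idi1, Lss and Cyp51, which were highest there. The 6 enzymes with 5% or more of their 50-base stretches in other genes were then left out. Of the rest, 6 of 12 were lowest in mouse 2 and 10 of 12 highest in mouse 3, beside 36.9% and 34.2% of all genes tested. Of those left out, Acat2, Hmgcs1, Idi1, Fdps and Fdft1 were lowest in mouse 2 and Tm7sf2 in mouse 1. The counts on 18 enzymes were 11 lowest in mouse 2 and 12 to 14 highest in mouse 3 under each other scaling of library sizes tried.

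Library size and, inversely, mitochondrial share followed both ends of this pattern, mouse 2 lowest and mouse 3 highest. The sums of ILC2, epithelial and plasma and B cell markers matched it at a single end. Other marker sums matched it at neither end. In mice 1, 2 and 3 they were 12.5, 9.27 and 7.82 CPM for T cells and 21.4, 37.8 and 26 CPM for myeloid cells. For stroma and endothelium they were 38.4, 24.2 and 21.6 CPM. Mouse 2 had the smallest library and the lowest Epcam, an epithelial marker, at 29.4, 3.70 and 25.8 CPM in mice 1, 2 and 3. All 7 epithelial markers summed to 33.5, 5.63 and 27.7 CPM, and Krt20, Cdh1 and Fabp2 had no count. Lgals4 was likewise lowest in mouse 2, at 4.10, 0.0569 and 1.84 CPM, but Vil1 had counts in mouse 2 only, at 1.82 CPM, as did Krt8, with 1 count. Mitochondrial genes took 2.35%, 3.01% and 1.77% of the counts of mice 1, 2 and 3, most in mouse 2 and least in mouse 3. Mouse 3 had the largest library and the highest sum of plasma and B cell markers, whose lowest sum was in mouse 1. ILC2 markers were also lowest in sum in mouse 2. By gene, 5 of the 10 were lowest in mouse 2 and 5 in mouse 3, and 7 were highest in mouse 1. With immunoglobulin genes left out the count of enzymes lowest in mouse 2 was also 11, beside 35.9% of all genes tested. For the enzymes this setting changes only the scaling of each library. Any RNA from other cells stays in their counts, so it cannot test the part of those cells. The part of depth, mitochondrial share and other cells in the pattern was not tested.

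**Figure D5:**
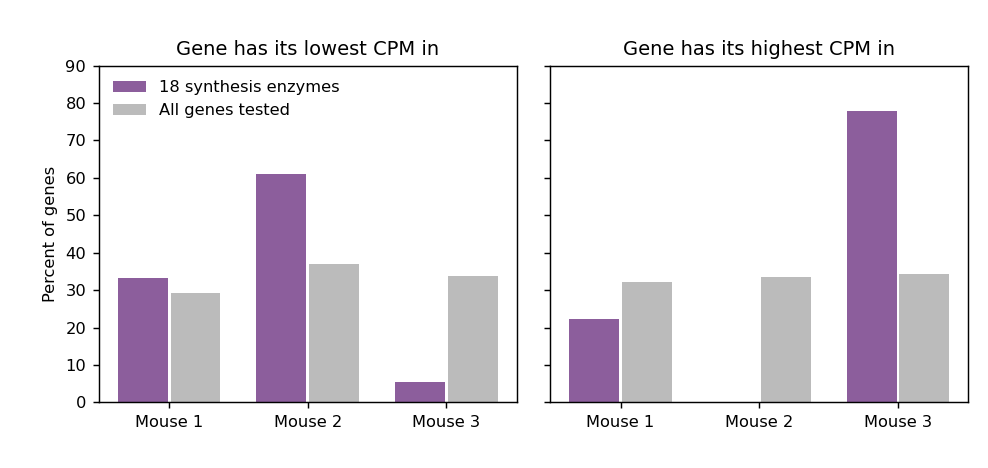
Share of genes with their lowest and their highest CPM in each mouse, for the synthesis enzymes and for all genes tested (bars, percent). Of the 18 synthesis enzymes 61.1% were lowest in mouse 2 and 77.8% highest in mouse 3, beside 36.9% and 34.2% of all genes tested.

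Squalene synthase and squalene epoxidase, which act in succession, did not keep their order on the length of all exons. Sqle over Fdft1 was 0.95, 0.67 and -0.73 on the log2(TPM + 0.5) scale, so Sqle was higher in mice 1 and 2 and Fdft1 in mouse 3. The mean was 0.30 ± 0.90 (SD, n = 3), smaller than its spread, with an exact two-sided sign-flip permutation p of 0.75 (0.75 adjusted over the 6 pairs). Without mouse 1 the mean was -0.03, and without mouse 3 it was 0.81. On principal transcript length it was 1.04 ± 0.88 (SD, n = 3), and on CPM not divided by length 0.70 ± 0.93. The principal transcript has 2758 bases for Sqle and 3698 for Fdft1, against 5546 and 4227 by all exons. The order in mouse 3 therefore depends on the length used. It also rests on the Fdft1 value of that mouse, in which the part of reads shared with Ctsb was not tested.

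Genes that surround the pathway were read from 3 further lists. Of 15 genes of SREBP processing, sterol sensing and transfer, 12 were detected. Stard3nl, an endosomal contact-site protein, had the highest mean at 61.1 ± 15.4 TPM (SD, n = 3), followed by Tmem97, a sterol-binding membrane protein, at 54.6 ± 1.47 TPM. Rnf139, a sterol-sensing ubiquitin ligase, had 21.9 ± 7.37 TPM. Among those under 1 CPM in at least 1 mouse, Erlin1 had 0, 6.88 and 9.17 CPM and Stard3 0.309, 3.64 and 7.02 CPM, both lowest in mouse 1.

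Branches that draw on farnesyl diphosphate had 8 of 11 genes detected. Fnta, the alpha subunit shared by farnesyl and geranylgeranyl transferases, had 114 ± 42.7 TPM (SD, n = 3). Rabggtb, the catalytic subunit that prenylates Rab proteins, had 75.8 ± 6.36 TPM, and Ggps1, which makes geranylgeranyl diphosphate, 41.1 ± 4.31 TPM. Fntb, the partner of Fnta, was not detected by the 1 CPM rule, with 1.63, 0.739 and 3.34 CPM. Rabggta, the partner of Rabggtb, had 9.79, 0.398 and 19.3 CPM, and Pdss2, of ubiquinone synthesis, 0.882, 0.910 and 0.460 CPM.

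Of 16 genes of oxysterol metabolism, LXR, lipoprotein receptors and ester turnover, 6 were detected, close to the 38.0% of protein-coding gene IDs. Gpr183, the oxysterol receptor, was at 556 ± 139 TPM (SD, n = 3), the 96.9th percentile of detected genes, and had 913, 745 and 813 CPM. Ch25h, which makes a precursor of its ligand, had only the 4 counts given above. Nr1h2, which encodes an LXR, had 26.2, 15.2 and 38.4 CPM, whereas Nr1h3, the other LXR gene, had 0, 0 and 0.729 CPM. Lpcat3, an LXR target that remodels phospholipids, had 25.0, 4.15 and 19.8 CPM. Cyp7b1 had 0, 0.0569 and 3.53 CPM and Cyp27a1 0, 0.512 and 0 CPM, both being oxysterol hydroxylases, and Hsd3b7, which acts after them, 10.9, 5 and 0.805 CPM. Cyp46a1, Vldlr and Abcg4 had no count in any mouse. Lrp1 had 0, 0.114 and 0.652 CPM, Lrp8 0, 1.36 and 3.07 CPM, and Soat2, the second esterifying enzyme, 0.132, 0.341 and 4.41 CPM.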

How the data were processed

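RNA from sorted ILC2s of 3 mice was measured by RNA sequencing, with libraries made by the SMARTer Ultra Low Input V4 kit per the labels' protocols, a kit that does not mark strand. The authors deposited raw read counts, a whole number for each Entrez gene ID and library. The submitters' processing notes name mm10, STAR 2.3.0 and CASAVA 1.8.2. How reads were counted, with which annotation and with what rule for multiple hits, is not given in the sources used here. Mice are numbered from the sample titles, and separate mice are named by the design text only.

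IDs were named from the RefSeq gene table of GRCm38.p6 (25275 of 27179). CPM used TMM factors from edgeR 4.0.16 (R 4.3.3). TPM used the union of exons in GENCODE M21, which 24898 IDs had. A pseudocount of 0.5 was added before logs. Totals were 22112425, 17819551 and 26374248 counts for mice 1, 2 and 3, so 3 counts equal 0.132, 0.171 and 0.115 CPM. Intervals and floors cover counting error only, since reads carried no molecular identifiers. Variability was tested on the whole table, on 9175 genes passing filterByExpr (minimum count 10), with an intercept-only quasi-likelihood fit and an upper-tail F test of quasi-dispersion over its trend, and was tested on simulated data. Pairs of genes were compared by an exact two-sided sign-flip permutation test.

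All 31 members are named. Of each surrounding list, the 3 genes of highest mean TPM and those not detected are named, except for some that are not reported here. The members and lists were chosen with earlier results of these data known. Alternatives were no TMM, DESeq2 1.42.0, limma 3.58.1, a robust prior, other minima, pseudocounts and lengths, immunoglobulin genes left out, and each mouse left out. Principal transcript length, the count of enzymes lowest in mouse 2 or highest in mouse 3 and the removal of enzymes with shared sequence were added after seeing the data.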

Additional observations from a re-analysis of the deposited data

How the results depend on the processing

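The members called more variable stayed at 0 under every alternative tried, with 0 to 2 members at an unadjusted p under 0.05. Detected members numbered 29 except with a minimum of 5 CPM, which left 20. Synthesis enzymes lowest in mouse 2 went from 11 of 18 to 6 of 12 with those of shared sequence left out. Those highest in mouse 3 went from 14 of 18 to 10 of 12. Over all genes, the 17 calls became 1 with immunoglobulin genes left out, 0 with a robust prior, 27 at a mean of 5 CPM or more, 24 by DESeq2 and 13 to 31 with 1 mouse left out, the most without mouse 1. With 1 mouse left out, Sqle over Fdft1 ranged from -0.03, a reversed sign, without mouse 1 to 0.81 without mouse 3, and over the other settings it reached 1.04, on principal transcript length. The count of members with a ratio of 2 or more was 5 to 7 with 1 mouse left out, where fewer mice give a smaller range for all genes too (20% to 22.5%), and 9 to 11 under the other settings. Srebf2 over Srebf1 ranged from 1.09 to 1.75, Insig1 over Insig2 from -1.12 to -0.76 and Npc2 over Npc1 from 4.75 to 5.79, with their direction kept. Mice could not be paired across conditions because there is only 1 group. Depth limits statements on Ch25h in each mouse and on Abca1 in mouse 2, which had 1 count.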
